A study of Mus musculus with 8 samples.

Results

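The genes described here flank Slc38a1, which encodes the amino acid transporter SNAT1, on mouse chromosome 15. They are Tmem117, Ano6, Gm4371, Arid2 and Scaf11 on the lower-coordinate side, and Amigo2, Pced1b and Rpap3 on the higher-coordinate side. These 8 genes, out of 22911 named genes on the array, were taken by symbol as neighbours of Slc38a1 that do not belong to the Slc38a family, and they were chosen with the differences between the groups already known. The differences of these genes between the groups are therefore given as a description with their errors and without p values, and counts past a threshold are printed only beside the share of all probes past it. The data came from 8 one-color microarrays of total RNA from isolated pancreatic islets of 11-week-old mice, 4 arrays per group, with RNA from 150 islets per extraction. Control mice carried floxed Fbln5 alleles without Cre, and βFbln5KO mice carried the same floxed alleles together with Ins1-cre, a transgene that drives Cre from the mouse insulin 1 promoter in β-cells. The study's methods describe the mice as male littermates. All arrays lay on a single slide, with the control arrays in one row and the βFbln5KO arrays in the other. The deletion of Fbln5, the presence of Cre and the row of the slide therefore cannot be told apart, and islets contain other cell types in which the floxed alleles stay intact. Nothing in the labels says that each extraction came from separate animals, so the spread between arrays may in part be technical.

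Neighboring genes on a chromosome are often transcribed independently, although they can share enhancers, a bidirectional promoter region, or the chromatin domain in which they lie. In bulk RNA from islets, the level of a transcript reflects both the cells that express it and the amount per cell, and fewer cells of a type and less RNA per cell cannot be told apart. Slc38a1, Slc38a2 and Slc38a4 encode related sodium-coupled neutral amino acid transporters and are consecutive among the detected genes of this stretch, whereas the flanking genes do not belong to that family. Fbln5, the targeted gene, encodes a secreted matrix protein that takes part in elastic fiber assembly, and it lies on another chromosome.

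Levels are log2 signals relative to the 75th percentile of the array on which they were measured, so a level of 0 is the signal of that percentile, and a difference of 1 is a doubling. They are compared between arrays and not between genes. The 8 genes were covered by 9 probes, since Ano6 had a pair of probes, and all 9 were well above background on all 8 arrays. Over these arrays, 52.6% to 58.8% of spots were well above background, with the lower values on the βFbln5KO arrays, and no spot was saturated. Islet cell markers were well above background throughout, including 8 of 8 β-cell and 5 of 5 α-cell markers. Of each of these lists, 2 markers were lower on the βFbln5KO arrays without overlap. Among all genes well above background on all 8 arrays, groups did not overlap for 2.81%, in either direction. The summed linear signal, in multiples of the 75th percentile, was 1260 to 1540 on control and 1230 to 1280 on βFbln5KO arrays for β-cell markers, and 274 to 310 and 246 to 276 for α-cell markers. The median log2 difference was -0.09 over the β-cell markers and -0.23 over the α-cell markers. The 10 markers of exocrine acinar cells had a summed linear signal of 1230 to 3060 times the 75th percentile on control arrays and 805 to 1990 times on βFbln5KO arrays, with a median log2 difference of -0.90 and no marker separating the groups. Whether the makeup of the islets or acinar RNA has a part in the values of the flanking genes was not tested. The Fbln5 probe gave -1.70, -1.32, -2.05 and -1.83 on the control arrays and -2.74, -2.40, -2.38 and -1.37 on the βFbln5KO arrays. The array labeled βFbln5KO replicate 4 thus lay within the control range, and whether this probe matches the deleted exons is not given in the sources used here. The differences of all 9 flanking-gene probes were therefore also computed without it.

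Amigo2 and Pced1b, which lie side by side, were higher in βFbln5KO islets than in control islets, and the groups did not overlap for either gene. Amigo2 encodes a transmembrane adhesion molecule with leucine-rich repeats and an immunoglobulin-like domain. Pced1b encodes a protein with a PC-esterase domain. In the GRCm38.p6 assembly, Pced1b lies on the plus strand and Amigo2 on the minus strand, and the Pced1b start site lies 180 bases below that of Amigo2, so their annotated 5′ ends overlap on opposite strands. Where the probes lie relative to this overlap is not given in the sources used here. The RefSeq windows from 250 bases before to 50 bases after each start are shown because these neighbors moved together. Capitals mark matches on either strand to the CAAT box, spelled CCAAT, to the GC box bound by Sp1-type factors, spelled GGGCGG, or to the TATA box, spelled TATAAA.
Pced1b, chr15:97246857-97247156, plus strand: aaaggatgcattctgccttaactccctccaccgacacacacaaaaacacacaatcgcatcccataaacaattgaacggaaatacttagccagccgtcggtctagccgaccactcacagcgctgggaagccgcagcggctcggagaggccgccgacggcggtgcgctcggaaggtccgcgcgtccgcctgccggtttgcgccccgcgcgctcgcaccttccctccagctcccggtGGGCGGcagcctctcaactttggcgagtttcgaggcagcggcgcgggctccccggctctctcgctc
Amigo2, chr15:97247238-97247537, minus strand: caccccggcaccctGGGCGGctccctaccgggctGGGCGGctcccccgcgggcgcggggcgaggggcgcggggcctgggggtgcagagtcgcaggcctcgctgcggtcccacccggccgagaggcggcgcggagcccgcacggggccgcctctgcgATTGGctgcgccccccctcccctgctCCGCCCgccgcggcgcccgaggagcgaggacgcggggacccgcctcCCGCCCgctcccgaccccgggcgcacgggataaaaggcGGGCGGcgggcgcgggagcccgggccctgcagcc
The windows did not overlap and were separated by 81 bases. The Amigo2 window held 5 matches to the GC box and 1 to the CAAT box, and the Pced1b window held 1 match to the GC box. None of these matches overlapped another, and neither window held the TATA box. Among all 32817 promoter windows of the same length in the table, 35.6% held the GC box, 37.4% the CAAT box and 13.6% the TATA box on either strand. Both windows were rich in CpG dinucleotides, with 46 in the Amigo2 window, more than in 98.3% of all windows, and 35 in the Pced1b window, more than in 93.0%. Windows were found for 6 of the 8 genes and not for Gm4371 and Arid2. Scaf11 and Rpap3, the nearest flanking genes outside the moved stretch with a window, had 48 and 24 CpG dinucleotides, against a median of 7 over all windows. Matches to the GC box, counting overlapping ones, numbered 7 in the Scaf11 window, 4 in that of Tmem117, 3 in that of Ano6 and 0 in that of Rpap3. Several GC boxes were therefore not particular to the genes that moved.

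The Amigo2 probe (A_51_P176972) gave -0.78, -0.66, -0.56 and -0.89 on the control arrays and 0.09, 0.16 and 0.35 on the βFbln5KO arrays of replicates 2, 3 and 4. The spot of βFbln5KO replicate 1 read 1.08, but the scanner software had marked it as an outlier, and it was left out of the fit. All βFbln5KO values, including the marked one, lay above all control values. The mean level was -0.72 ± 0.14 (SD, n = 4) in control islets and 0.20 ± 0.14 (SD, n = 3) in βFbln5KO islets. The difference was 0.92 (SE 0.10), or 1.89-fold, and it was 1.14 when the marked value was kept. Without βFbln5KO replicate 4, it was 0.84.

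Pced1b (probe A_55_P2168426) gave -0.02, -0.11, 0.17 and 0.08 on the control arrays and 0.37, 0.60, 0.59 and 0.64 on the βFbln5KO arrays. No value was marked as an outlier, and the lowest βFbln5KO array lay above the highest control array. The mean level was 0.03 ± 0.12 (SD, n = 4) in control islets and 0.55 ± 0.12 (SD, n = 4) in βFbln5KO islets, a difference of 0.52 (SE 0.08), or 1.43-fold. Without βFbln5KO replicate 4, the difference was 0.49.

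**Figure D1:**
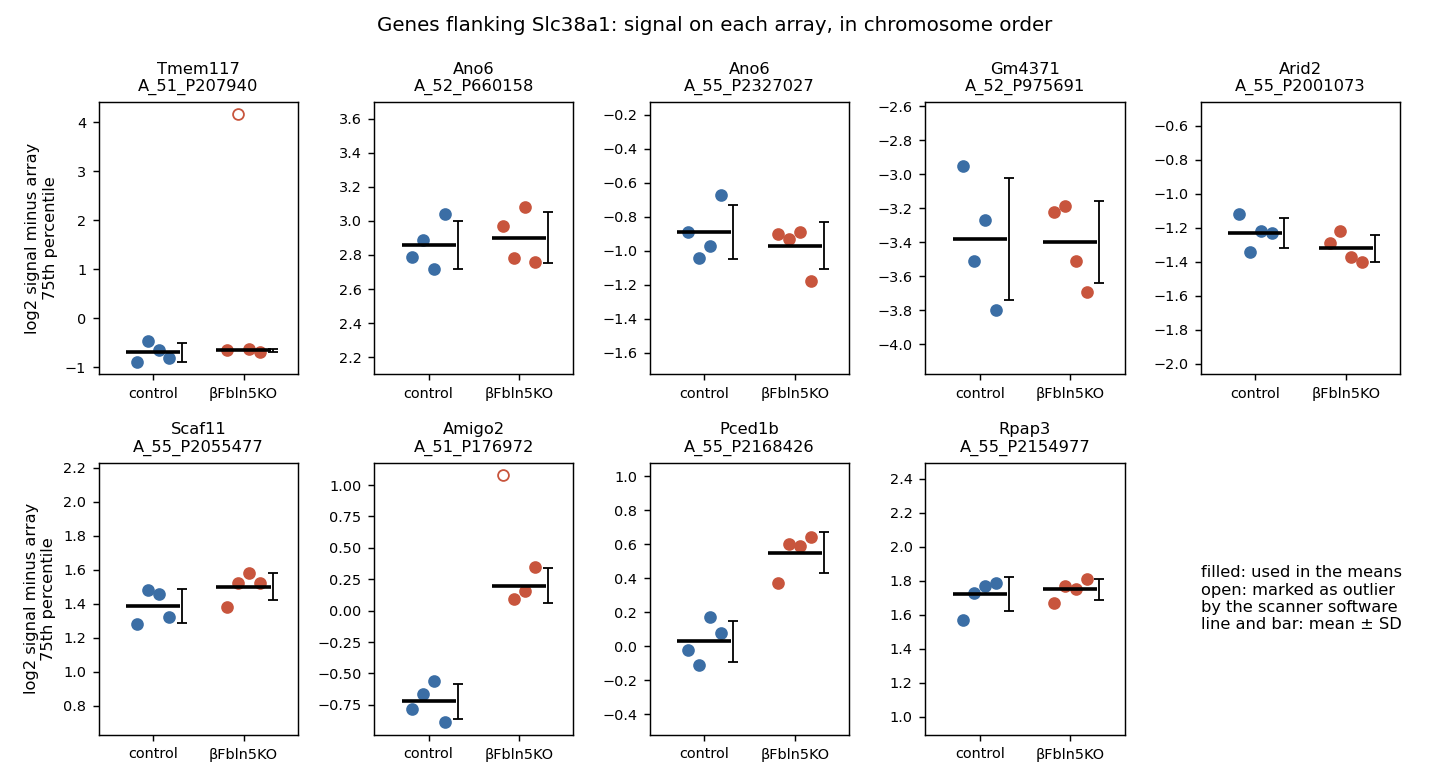
Log2 signal relative to the 75th percentile of each array (vertical axes, each with its own position) for the 9 probes of the 8 genes, with 4 control arrays in blue and 4 βFbln5KO arrays in red. Lines and bars show the mean ± SD of the filled points, and open points were marked as outliers by the scanner software. The groups are separate for Amigo2 and Pced1b and overlap for the other 7 probes.

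The genes whose products act in the nucleus or in protein assembly overlapped between the groups. Scaf11 encodes an SR-related splicing factor and is the detected flanking gene nearest to Slc38a1, 110 kb from it. Its probe (A_55_P2055477) gave 1.28, 1.48, 1.46 and 1.32 on the control arrays and 1.38, 1.52, 1.58 and 1.52 on the βFbln5KO arrays. Although 3 of the 4 βFbln5KO arrays lay above every control array, βFbln5KO replicate 1 fell among the controls. The means were 1.39 ± 0.10 in control and 1.50 ± 0.08 in βFbln5KO islets (SD, n = 4 each), and the difference was 0.11 (SE 0.06), or 1.08-fold. Arid2, 166 kb from Slc38a1, encodes a subunit of the PBAF form of the SWI/SNF chromatin remodeling complex. Its probe (A_55_P2001073) gave -1.12, -1.34, -1.22 and -1.23 on the control arrays and -1.29, -1.22, -1.37 and -1.40 on the βFbln5KO arrays. These values overlapped, with a difference of -0.09 (SE 0.08). Rpap3, at the far end on the higher-coordinate side, encodes a co-chaperone of HSP90 in the R2TP complex, which helps to assemble RNA polymerase II. Its probe (A_55_P2154977) gave 1.57, 1.73, 1.77 and 1.79 on the control arrays and 1.67, 1.77, 1.75 and 1.81 on the βFbln5KO arrays. The difference was 0.03 (SE 0.06), within the spread of either group.

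The genes of membrane proteins on the lower-coordinate side also overlapped between the groups. Ano6, also known as TMEM16F, encodes a calcium-activated phospholipid scramblase and ion channel. Its brighter probe (A_52_P660158) gave 2.79, 2.89, 2.72 and 3.04 on the control arrays and 2.97, 2.78, 3.08 and 2.76 on the βFbln5KO arrays, a difference of 0.04 (SE 0.09). The other probe (A_55_P2327027), designed on another transcript record of the gene, gave -0.89, -1.04, -0.97 and -0.67 on the control arrays and -0.90, -0.93, -0.89 and -1.18 on the βFbln5KO arrays. Its difference was -0.08 (SE 0.10), opposite in sign to that of the brighter probe and, like it, smaller than its error. Without βFbln5KO replicate 4, it was -0.01. Tmem117 encodes a multi-pass membrane protein and lies 1475 kb from Slc38a1. Its probe (A_51_P207940) gave -0.89, -0.46, -0.65 and -0.81 on the control arrays and -0.65, -0.64 and -0.69 on the βFbln5KO arrays of replicates 1, 3 and 4. The spot of βFbln5KO replicate 2 read 4.16 and was marked as an outlier by the scanner software, and without it the difference was 0.04 (SE 0.11). With that single value kept, the difference was 1.25, and the βFbln5KO mean was 0.54 ± 2.41 (SD, n = 4). Gm4371 is annotated by RefSeq as a transcribed pseudogene, and cross-hybridization of its probe with related sequences was not tested. The probe (A_52_P975691) gave -2.95, -3.51, -3.27 and -3.80 on the control arrays and -3.22, -3.19, -3.51 and -3.69 on the βFbln5KO arrays. All βFbln5KO values lay within the range of the control values, with a difference of -0.02 (SE 0.23). Without βFbln5KO replicate 4, the difference was 0.08 for Gm4371 and for the brighter Ano6 probe, 0.06 for Tmem117, -0.07 for Arid2, 0.11 for Scaf11 and 0.01 for Rpap3, and the groups still overlapped for all of these.

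None of the 9 probes passed an adjusted p threshold of 0.05 in limma, in a comparison in which 0.0106% of all 56605 probes did. At an unadjusted p under 0.05, 2 of 9 passed, beside 24.7% of all probes and 6.28% of the 26612 detected probes, those above background throughout. The 2 probes with separate groups, Amigo2 and Pced1b, stood beside 19.2% of all probes and 0.661% of the detected probes that were higher without overlap. In either direction, groups were separate for 21.9% of all probes and 4.14% of the detected ones. Since the genes were chosen on this contrast, nothing is read from these counts. When βFbln5KO replicate 4 was left out, the Amigo2 and Pced1b probes passed the adjusted threshold, but so did 20.4% of all probes. The same held when the fit ignored the trend of variance with signal, where 11.6% of all probes passed. With the simpler test named in the study's methods, adjusted in the same way, 0 of the 9 probes and 0.154% of all probes passed. The median difference over the 8 genes was 0.04, with a range from -0.09 to 0.92, and the median over all 13650 detected genes was -0.01. Ordered by difference among those detected genes, Amigo2 was 21st and Pced1b 85th from the top, and Scaf11 was 1449th.

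**Figure D2:**
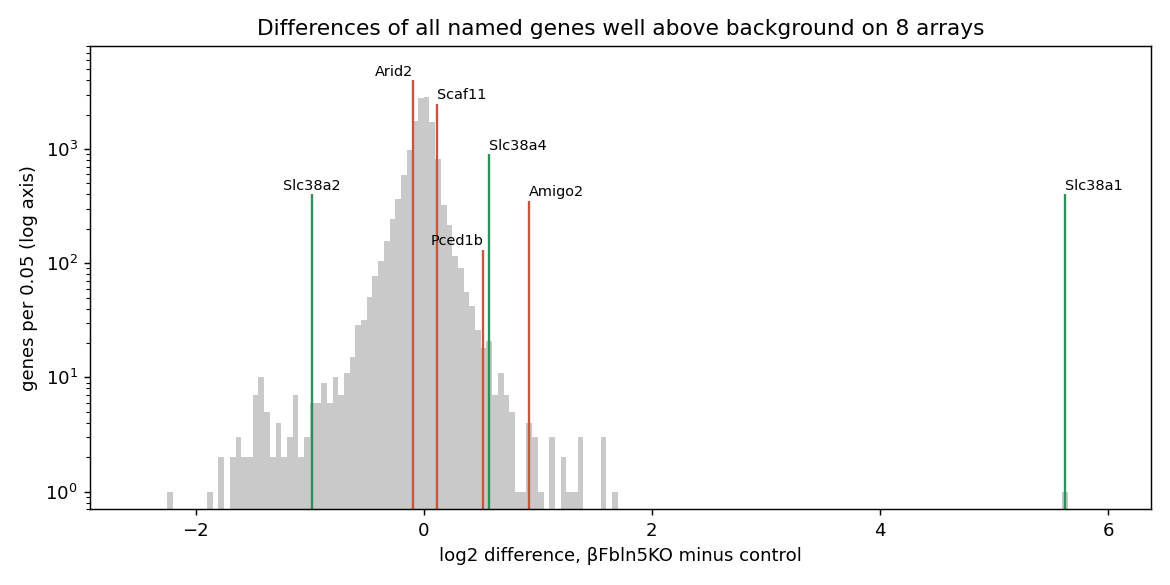
Number of genes (vertical log axis) by log2 difference between βFbln5KO and control islets (horizontal axis) for the 13650 named genes well above background on all 8 arrays. Red lines mark flanking genes and green lines mark Slc38a genes: Amigo2 (0.92) and Pced1b (0.52) lie in the right tail, and Arid2 (-0.09) and Scaf11 (0.11) lie near the center.

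The positions of the genes that differed were compared next. Between Tmem117 and Rpap3, 11 genes were detected on all arrays, which were the 8 flanking genes and the 3 Slc38a genes. Another 9 measured genes in that interval were not detected on all arrays. Slc38a1 was 49.3-fold higher in βFbln5KO islets by its brightest probe, with means of -3.18 ± 0.50 and 2.44 ± 0.05 (SD, n = 4 each). Next to it, at 44 kb, Slc38a2 was lower by a difference of -0.98 (SE 0.08), and at 351 kb Slc38a4 was higher by 0.57 (SE 0.11). Amigo2 and Pced1b followed at 601 and 604 kb. The groups were separate for these 5 genes, and they were consecutive among the detected genes, from the 7th to the 11th in chromosome order of the 31 genes detected within 2 Mb of Slc38a1. Without βFbln5KO replicate 4, the groups were separate for the same 5 genes and for none of the other detected genes within 2 Mb, with differences of 5.64 for Slc38a1, -0.96 for Slc38a2 and 0.62 for Slc38a4. Slc38a2 differed in direction from its 4 neighbors in this stretch. The change was therefore not in one direction along the chromosome. Its size fell from Slc38a1 to Slc38a2 and Slc38a4, and was 0.52 for Pced1b, while Amigo2 differed more than the nearer Slc38a4. With βFbln5KO replicate 4 left out, Amigo2 differed by 0.84 (SE 0.11) and Slc38a4 by 0.62 (SE 0.12). Amigo2 was measured by a single probe in spot row 8, and the part of spot position in its value was not tested. On the lower-coordinate side, Scaf11 and Arid2 were nearer to Slc38a1 than Slc38a4, Amigo2 and Pced1b were, and their groups overlapped.

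The other genes near Slc38a1 were used to describe the surroundings. Within 2 Mb of Slc38a1, 53 of the 110 annotated genes were measured, and 42 of them were neither flanking genes as defined here nor Slc38a genes. Of these 42, 20 were detected on every array, and their differences ranged from -0.18 to 0.13 with a median of 0.01. All 20 lay outside the interval from Tmem117 to Rpap3. Twf1 lay 1982 kb from Slc38a1 on the lower-coordinate side, and the rest lay on the other side, from Rapgef3 at 1101 kb outward. They therefore do not describe the nearer surroundings. None of the 20 had separate groups or passed an unadjusted p of 0.05 in limma. This count leaves out the flanking and Slc38a genes, which were chosen with their differences known. With those included, groups were separate for 5 of the 31 detected genes in the window, beside 2.81% of all detected genes. These 5 are all among the chosen genes, and the window was centered on Slc38a1, so nothing is read from that share. The largest differences among the 20 other detected genes were those of Rapgef3os2, an antisense transcript, at -0.18 (SE 0.18), and of Kansl2 and the small nucleolar RNA Snora34, each at 0.13, with SEs of 0.07 and 0.29. Among the 42 genes, the nearest on the lower-coordinate side, 4833422M21Rik, was well above background on 4 of 8 arrays and overlapped between groups. The nearest on the higher-coordinate side, Gm32677, between Slc38a2 and Slc38a4, was well above background on 1 of 8 arrays, so no fold change is given. The 14 genes in the window that were dim on every array had a median difference of 0.48, and at that signal no transcript level was measured.

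**Figure D3:**
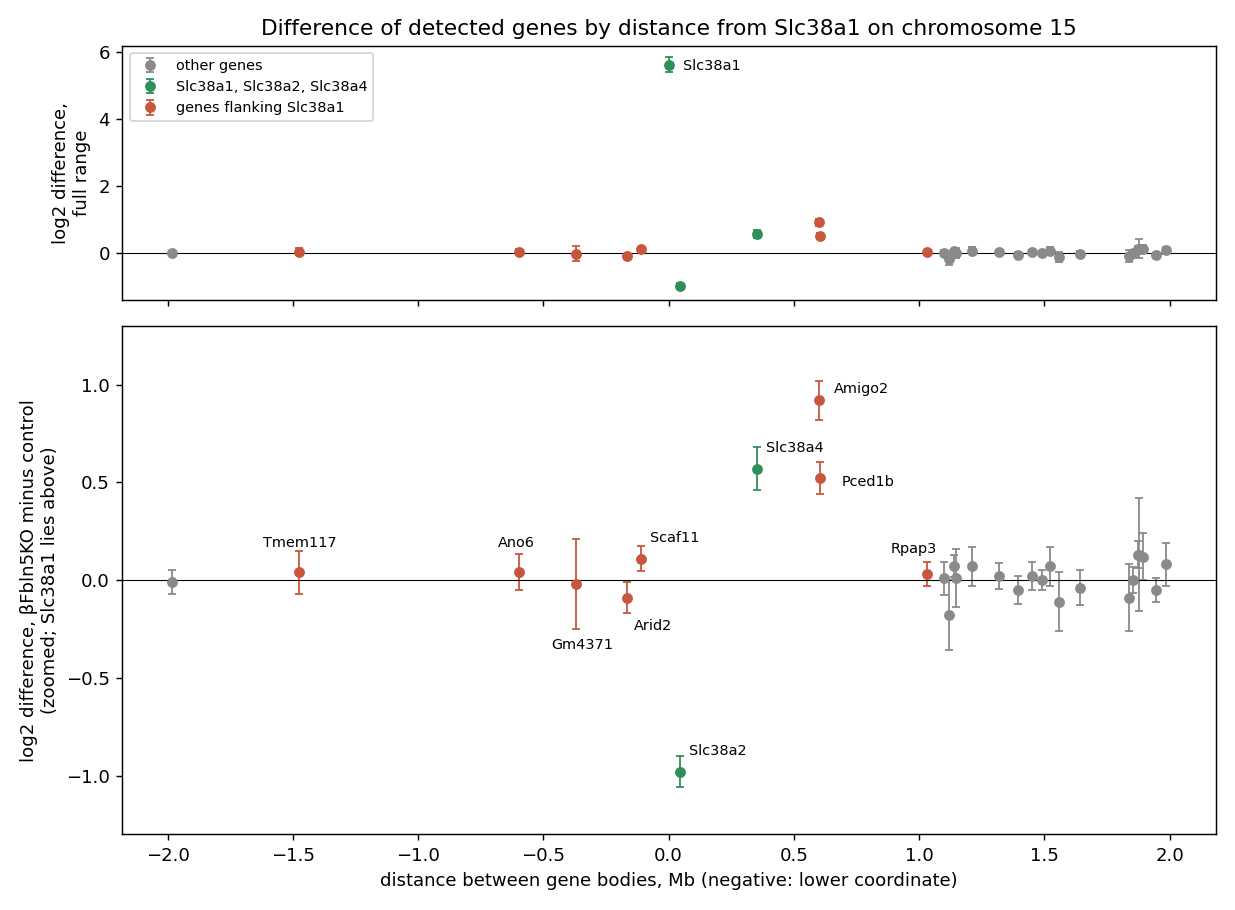
Log2 difference between βFbln5KO and control islets ± SE (vertical axes) for the 31 genes detected within 2 Mb of Slc38a1, by distance between gene bodies in Mb (horizontal axis). The upper panel shows the full range and the lower panel a narrower one: Slc38a1, Slc38a2, Slc38a4, Amigo2 and Pced1b stand apart from 0, and the other 26 genes lie between -0.18 and 0.13.

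The position of the spots on the array was examined because Amigo2 was measured in spot row 8. Among detected probes in spot rows 1 to 16, 2.32% of 1206 were higher in βFbln5KO islets without overlap, compared with 0.583% of 25406 in the other rows. Those that were also higher by more than 0.5, as Amigo2 was, made up 0.912% (11 probes) in rows 1 to 16 and 0.059% (15 probes) in the other rows. All detected probes in rows 1 to 16 had a 5th to 95th percentile range of differences from -0.32 to 0.46, and Amigo2 lay above it. The 6 detected probes within 2 rows and 2 columns of the Amigo2 spot had a median difference of 0.10, with a range from -0.37 to 1.58, and 1 of them was higher without overlap. Pced1b was measured in row 118, and its 14 neighboring spots had a median of -0.02 and a range from -0.23 to 0.16, none with separate groups. Amigo2 had a single probe, so its difference was seen at this one place on the array. The part of spot position in the Amigo2 value was not tested.

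**Figure D4:**
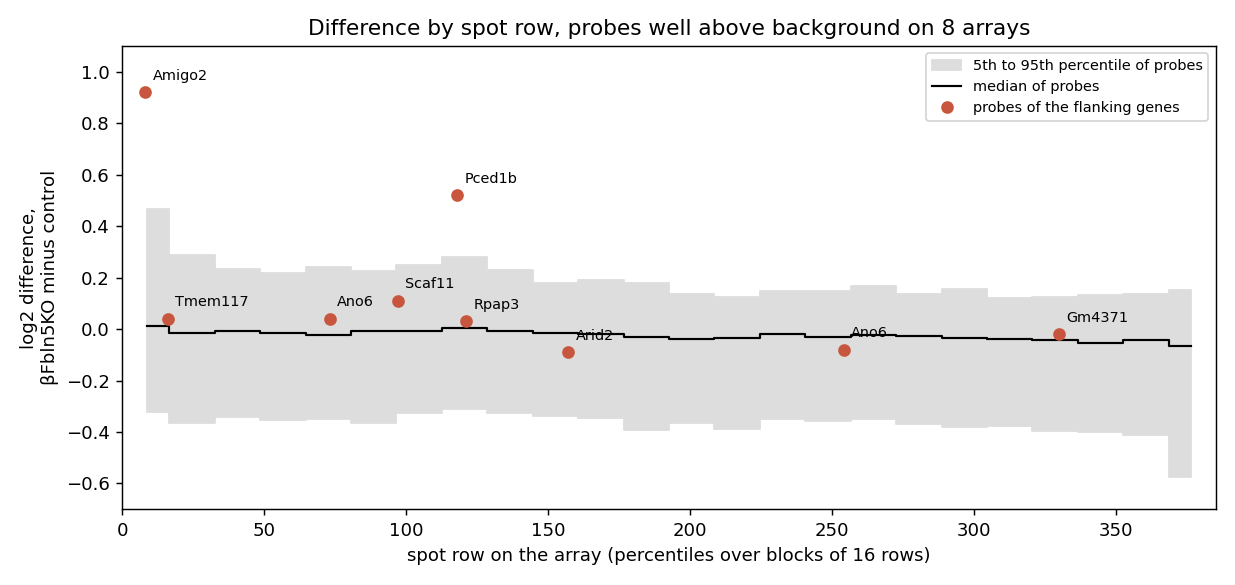
Log2 difference between βFbln5KO and control islets (vertical axis) by spot row on the array (horizontal axis). The band spans the 5th to 95th percentile and the line marks the median of probes well above background on all 8 arrays, in blocks of 16 rows, and red points are the 9 probes of the flanking genes: Amigo2 in row 8 and Pced1b in row 118 lie above the band.

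The genes whose signal across arrays was most like that of Amigo2 were named by Pearson correlation, over the 7 arrays with an Amigo2 value and 13552 genes. These were Slc38a1 (r = 0.978), Lca5l (r = 0.95) and Pced1b (r = 0.946). Slc38a4 ranked 57th at r = 0.856, and Slc38a2 was at r = -0.941. The 7 points fall into the groups of 4 control and 3 βFbln5KO arrays, so these coefficients mainly describe the difference between groups. Lca5l read -3.27 on the array of βFbln5KO replicate 1, which did not enter its coefficient and lay below all its control values.

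Partners and relatives of the flanking genes' products, which are encoded elsewhere, were compared between the same groups. The list held 38 genes, all of them measured, and 33 were detected on every array. None passed the adjusted threshold in limma, and none of the 33 passed an unadjusted p of 0.05 or had separate groups, beside 6.28% of detected probes and 2.81% of detected genes, respectively. Of the 5 others, 4 dim members of the anoctamin family passed an unadjusted p of 0.05, with higher signal in βFbln5KO islets, beside 24.7% of all probes, and none of these 4 was well above background on any array. The median difference of the 33 detected genes was -0.01. For the 13 listed SWI/SNF genes, which include Arid1a and Arid1b of the alternative BAF form, differences ranged from -0.17 to 0.15. Amigo1 and Amigo3, the relatives of Amigo2, had differences of -0.00099 (SE 0.04) and -0.05 (SE 0.24), and Pced1a, the relative of Pced1b, had one of 0.03 (SE 0.06). The 5 genes listed with Scaf11 for splicing ranged from -0.13 to 0.07. Among the 33 detected genes, the largest difference in size, -0.83 (SE 0.52), belonged to the brighter probe of Pih1d1, a subunit of the R2TP complex of Rpap3. That probe lies in spot row 1 and varied from 1.26 to 3.60 on control arrays, and the other Pih1d1 probe differed by -0.10 (SE 0.14). Next in size among the detected genes were the chaperone gene Hsp90aa1 at -0.19 (SE 0.10) and the chloride channel gene Ano1 at -0.18 (SE 0.18), with adjusted p values of 0.322 and 0.645 in limma.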

How the data were processed

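Total RNA from islets of control and βFbln5KO mice was labeled with Cy3 and hybridized to one-color Agilent mouse arrays, 8 arrays on 1 slide. Per the file headers and labels, the deposited scanner files hold intensity values from Agilent Feature Extraction 11.0.1.1, which the authors' software had background-corrected; the authors' deposited table of normalized intensity held 35553 probes, 99.2% of whose values matched the processed signal within 0.01% after scaling each array by a constant. Processed signals were converted to log2 and centered by subtracting the 75th percentile of the array, outlier-marked values were dropped (0.356% of values), and spots of a probe were averaged. No pair of arrays within a group held an identical value at any probe. All 56605 probes were fitted with limma 3.58.1 (R 4.3.3, eBayes with trend), and p values were adjusted over all probes by the Benjamini-Hochberg method. The fit was also run on simulated data with independent noise per probe and changes larger than those of Amigo2 and Pced1b. That run does not cover changes of their size or a shift shared by many dim probes. A probe's gene was taken through its RefSeq accession from a table of GRCm38.p6, which named 58.3% of probes; a gene with several probes was led by the brightest. The array design's build was mm9, so gene coordinates are not printed, distances between gene bodies are from GRCm38.p6, and promoter windows are RefSeq's. The number of arrays limits the precision.

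The flanking genes, the partner list, the markers and the rule for named genes (all flanking genes, the Slc38a genes and Fbln5, the nearest and the 3 largest others within 2 Mb, the 3 largest partners, and the 3 genes most correlated with the flanking gene of largest difference) were chosen with earlier results of these data known. Alternatives were normexp background correction, quantile and median centring, a filter on dim probes, a floor at the highest of the arrays' lowest detected signals, eBayes without trend, marked outliers kept, the deposited table, the methods' Student test, the mean over a gene's probes, replicate number as a block, and leaving out each array. The count of probes with separate groups was an alternative summary chosen after seeing the data. All arrays shared 1 scan.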

Additional observations from a re-analysis of the deposited data

Results flagged for a closer look

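Among 32 groups of arrays, for the probes of the flanking genes, the Slc38a genes and Fbln5, 2 held an array far from the other arrays of its group by Dixon's test, which flags about 1 in 20 groups by chance. For Tmem117 (probe A_51_P207940), βFbln5KO replicate 2 was at 4.16 on the log2 scale, against -0.69 to -0.64 on the other βFbln5KO arrays, and this is the spot that the scanner software marked as an outlier. For the dimmer Ano6 probe (A_55_P2327027), βFbln5KO replicate 4 was at -1.18, against -0.93 to -0.89 on the other βFbln5KO arrays.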

How the results depend on the processing

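The number of flanking-gene probes past the adjusted threshold was 0 and became 2 with eBayes without trend, where 11.6% of all probes passed, and 0 to 2 when arrays were left out in turn (2 without βFbln5KO replicate 4, where 20.4% passed, against 0.0106% in all arrays). Partner genes past the threshold numbered 0, then 2 with eBayes without trend and 0 to 3 on leaving out arrays (3 without βFbln5KO replicate 4), all of them anoctamin genes dim on every array. The cause was not tested. Probes with separate groups numbered 2, beside 21.9% of all probes and 4.14% of detected ones, and 2 to 3 when arrays were left out. The probe added without βFbln5KO replicate 1 was that of Scaf11, at 1.52, 1.58 and 1.52 against a control maximum of 1.48. Fewer arrays separate more easily, and the share of all probes with arrays left out is not given here, so nothing is read from this count. Amigo2 kept its direction, with a difference of 0.84 to 0.98 on leaving out arrays and 0.78 to 1.1 elsewhere (0.78 with normexp, 1.1 with marked outliers kept and in the deposited table). Pced1b ranged from 0.46 to 0.58 over all alternatives. Tmem117 moved to 1.2 with its marked outlier kept. The median of the flanking genes ranged from -0.00063 to 0.085 and that of the other window genes from -0.047 to 0.063. With the replicate block, the differences of Amigo2 and Pced1b were 0.90 and 0.52. The deviations of same-numbered arrays correlated at 0.20, 0.30, -0.22 and -0.02, so the numbers were not taken to pair the samples. The deposited table gave no value for Tmem117. Signal near background limits Gm32677 and other dim genes, for which no change was measurable.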
